A study of Mus musculus with 12 samples.

Results

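Tubulin mRNAs were followed in 3T3-L1 cells, a mouse fibroblast line that turns into adipocytes after hormonal induction. The genes were the alpha-tubulins Tuba1a, Tuba1b, Tuba1c and Tuba4a and the beta-tubulins Tubb2a, Tubb2b, Tubb3, Tubb4b, Tubb5 and Tubb6, and their probes were found through the transcript accession that the array files give. For 9 of the 10 genes 15 of the 41174 probes on the array were found, and no probe carried the accession used for Tuba1b. Tubb2a and Tuba4a had 3 probes each, Tuba1c and Tubb5 had 2 each, and probes of the same gene are lettered A, B and C. The cells were either untreated confluent preadipocytes (0 h) or preadipocytes 6 h after a mixture with insulin at 5 µg/ml, dexamethasone at 1 µM and IBMX at 0.5 mM was given. The induction medium also contained fetal instead of newborn bovine serum, so the hormones and the serum cannot be told apart. Lysates of both time points were made in the presence of cycloheximide and separated on sucrose gradients, and the lighter and the heavier fractions were pooled as non-polysomal (np) and polysomal (p) RNA. Each of the 4 groups, np0, p0, np6 and p6, was measured on 3 arrays, 1 for each replicate, and all 12 arrays came from the same cell line.

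Alpha- and beta-tubulin form the dimers from which microtubules are built. Cells adjust the amount of tubulin by autoregulation, which acts on tubulin mRNAs while they are being translated. When unpolymerized dimers are abundant, TTC5 binds the first residues of the nascent tubulin chain at the ribosome, SCAPER links it to the CCR4-NOT deadenylase, and the tubulin mRNA on polysomes is degraded. Preadipocytes have the elongated shape and the dense microtubule array of fibroblasts, which is rebuilt as they become round fat cells.

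Every array measured all 15 probes well above background, and none had a saturated spot. Their log2 signals lay between 5.16 and 18.3, and the SD between the 3 arrays of a group was 0.009 to 0.226, with a median of 0.075. Arrays were scaled by spike-ins, control RNAs added in proportion to the test RNA, so a value is a level per amount of RNA in the pool and not per cell. The spike-ins were dimmer on the p6 arrays (offsets of -0.35, -0.48 and -0.21) than on the 9 others (0.05 to 0.17), which lifts every p6 value, and the brighter spike-ins showed less of this (-0.12, -0.11 and 0.02 on the p6 arrays). All 8 fibroblast marker genes were well above background on every array, as were 4 of 5 adipocyte marker genes with Lep on none. None of 3 neuron and none of 2 epithelial marker genes was well above background on all arrays, and of the macrophage and leukocyte markers Csf1r was and Ptprc was not. In the polysomal fraction 6 of 7 adipocyte marker probes were higher at 6 h and 1 lower (3 and 3 after quantile normalization). Of 13 fibroblast marker probes 7 were higher there and 3 lower (1 and 8 after quantile normalization). Of all probes 50.6% were higher and 11.7% lower (limma, adjusted p below 0.05). Csf1r was higher by a pair of its probes in the polysomal (1.78 and 1.36) and the non-polysomal fraction (1.03 and 1.58). Its other probe (-0.92 and -0.71) did not pass the test. The part of these marker changes in the tubulin values was not tested. Fewer cells of a type and less RNA per cell cannot be told apart in such lysates.

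The plot of the single values gives the 12 signals of every tubulin probe. By the spike-in scaling, in all 15 probes each p6 array lay above each p0 array, each p0 array above each np0 array, and each p6 array above each np6 array. How many of all probes have arrays that do not overlap was not counted. By limma, which is a different measure, 50.6%, 37.1% and 60.0% of all probes were higher in these 3 comparisons (adjusted p below 0.05). Scaled to the 75th percentile both Tubb5 probes were lower in p0 than in np0 (-0.55 and -0.33). After quantile normalization Tuba1a was lower in p6 than in p0 (-0.48). In the non-polysomal fraction the times were less far apart: the 6 h arrays lay above all 0 h arrays for 5 probes, below them for 6, and overlapped with them for 4. By limma 5 tubulin probes were higher there and 4 lower, beside 20.5% and 19.7% of all probes.

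**Figure D1:**
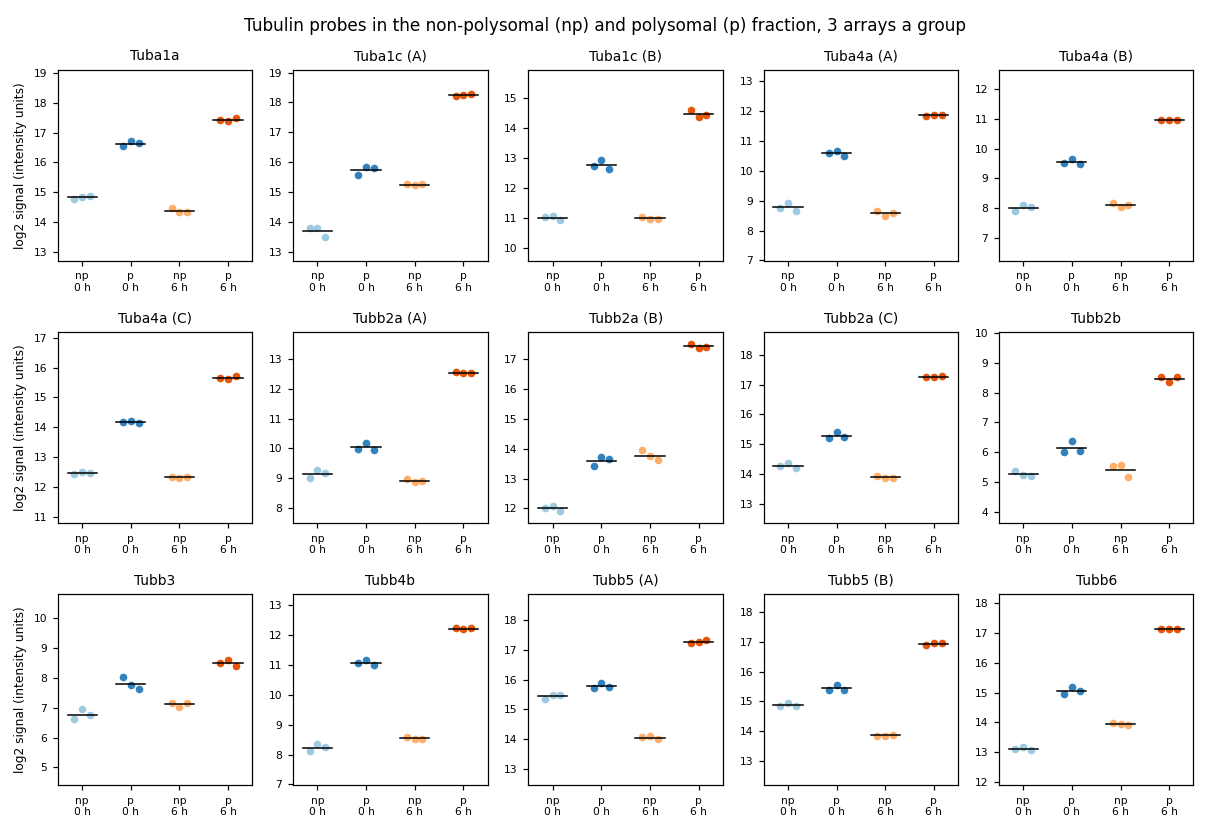
Log2 signal of the 15 tubulin probes (vertical axes, each panel spanning the same range of log2 units at its own level) on the arrays of the 4 groups, np and p at 0 h and 6 h. Points are arrays, 3 a group, and lines are group means. The p6 arrays are the highest in all 15 panels, while np6 lies below np0 for both Tubb5 probes and above it for Tuba1c A, Tubb2a B and Tubb6.

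How the distribution between the fractions shifted with time was expressed as the M-value, M = (p6 - np6) - (p0 - np0), a difference of log2 signals. M was above 0 for 14 of 15 tubulin probes and below 0 for none (limma over all probes, Benjamini-Hochberg adjusted p below 0.05), where 32.1% of all 41155 tested probes were above and 3.98% below 0. The median M of the tubulin probes was 1.64 (0.34 to 2.86), and that of all probes was 0.49. The offset of the spike-ins lifts all M-values alike, and the 95% interval of M lay above the median of all probes for 14 tubulin probes, again all but Tubb3. Scaled to the 75th percentile, where 15.0% of all probes were above and 13.3% below 0 and the median of all probes was 0.04, M was still above 0 for 14 tubulin probes, with a median of 1.19. The share of all probes above 0 moved far more with the scaling than the tubulin count: it was 8.87% with an offset taken from the brighter spike-ins alone, 71.5% with the authors' log2 values, 78.9% after normexp background correction and 81.2% when a straight line was fitted to the spike-ins, and all 15 tubulin probes were above 0 in the last 3 settings. Of the probes that, like all tubulin probes, every array measured well above background, 53.7% were above 0 by the spike-in scaling. With the brighter spike-ins 12 tubulin probes were above 0, and Tuba1c A (0.52, adjusted p = 0.078, limma) and Tubb4b (0.38, adjusted p = 0.0754, limma) no longer passed the test.

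**Figure D2:**
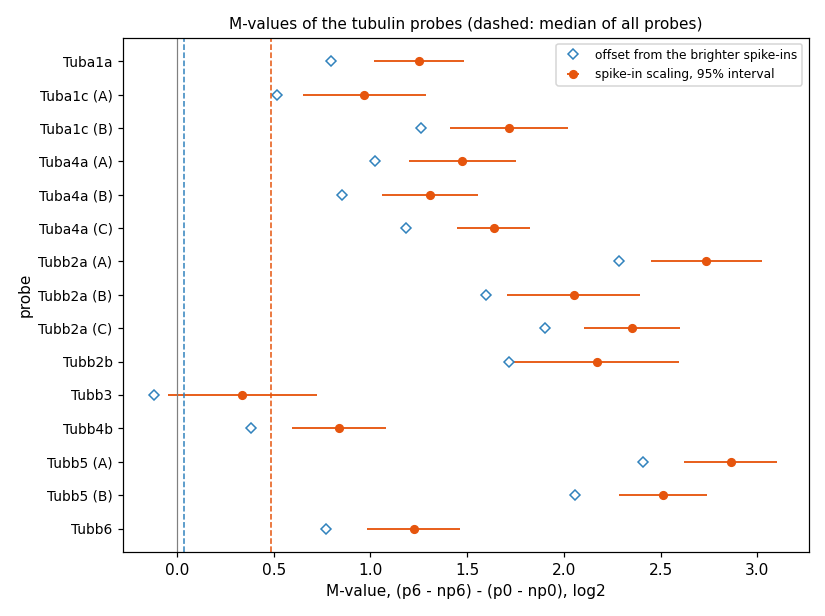
M-value (horizontal axis, log2) of each tubulin probe, with filled circles and 95% intervals for the spike-in scaling and open diamonds for the offset taken from the brighter spike-ins. Dashed lines are the medians of all probes under both scalings, 0.49 and 0.03. Both scalings put the Tubb5 and Tubb2a probes and Tubb2b farthest to the right, and under the brighter spike-ins Tubb3 falls to -0.12.

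Tubb5, the beta-tubulin found in nearly all cell types, had the highest M-value by its probe A, followed by Tubb2a A and then Tubb5 B. Probe Tubb5 A had log2 signals of 15.36, 15.48 and 15.50 in np0, 15.71, 15.90 and 15.76 in p0, 14.06, 14.10 and 14.01 in np6, and 17.21, 17.25 and 17.32 in p6. At 0 h the fractions were close together, and at 6 h every non-polysomal array had fallen below and every polysomal array had risen above both. The M-value of Tubb5 A was 2.86 ± 0.11 (SE, n = 3, adjusted p = 8.65e-07, limma), a 7.28-fold shift, with 2.80, 2.74 and 3.06 in the single replicates. Tubb5 B had an M-value of 2.51 ± 0.10 (SE, n = 3, adjusted p = 1.12e-06, limma). Its signal in the non-polysomal fraction was 14.85, 14.96 and 14.86 at 0 h and 13.86, 13.83 and 13.89 at 6 h, so that both probes of Tubb5 fell there, by 1.39 (A) and 1.03 (B) on the log2 scale, while they rose by 1.47 (A) and 1.49 (B) in the polysomal fraction.

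Tubb2a and Tubb2b encode class II beta-tubulins, which are close relatives of each other. The M-values of Tubb2a were 2.74 ± 0.13 (A), 2.05 ± 0.15 (B) and 2.35 ± 0.11 (C) (SE, n = 3), with adjusted p-values of 1.23e-06, 1.16e-05 and 1.23e-06 from limma. Tubb2b had log2 signals of 5.37, 5.25 and 5.19 in np0, 6.00, 6.37 and 6.04 in p0, 5.53, 5.56 and 5.16 in np6, and 8.51, 8.34 and 8.51 in p6. The p6 arrays lay above all others, and the np arrays of both times overlapped. Its M-value was 2.17 ± 0.19 (SE, n = 3, adjusted p = 2.89e-05, limma).

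The alpha-tubulins had M-values of 0.97 to 1.72 over 6 probes, with a median of 1.39, and the 9 beta-tubulin probes ranged from 0.34 to 2.86 with a median of 2.17. Tuba1a was measured at 14.77, 14.85 and 14.87 in np0, 16.54, 16.71 and 16.63 in p0, 14.46, 14.35 and 14.33 in np6, and 17.43, 17.39 and 17.48 in p6. Its fractions were thus apart already at 0 h and moved further apart, with an M-value of 1.25 ± 0.10 (SE, n = 3, adjusted p = 2.03e-05, limma), which after quantile normalization was 0.27 and still passed the test. Tuba1a then fell in both fractions. Tuba4a, whose product lacks the encoded C-terminal tyrosine of other alpha-tubulins, had M-values of 1.47 (A), 1.31 (B) and 1.64 (C), with overlapping 95% intervals. Tuba1c had 0.97 (A) and 1.72 (B), whose 95% intervals of 0.65 to 1.29 and 1.41 to 2.02 do not overlap.

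Tubb4b, Tubb6 and Tubb3 had the lowest M-values of the beta-tubulins. Tubb4b, widely expressed and a main tubulin of cilia, had log2 signals of 8.12, 8.34 and 8.25 in np0, 11.07, 11.16 and 10.99 in p0, 8.60, 8.53 and 8.53 in np6, and 12.23, 12.20 and 12.24 in p6. The fractions of Tubb4b were 2.84 apart at 0 h, the widest gap of the 15 probes at that time, and its M-value was 0.84 ± 0.11 (SE, n = 3, adjusted p = 0.00026, limma). Tubb6, a class V beta-tubulin, had an M-value of 1.22 ± 0.11 (SE, n = 3, adjusted p = 2.89e-05, limma).

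Tubb3, the class III beta-tubulin best known as a marker of neurons, was the 1 gene whose M-value did not pass the test. Its log2 signals, each the mean of up to 10 spots with outlier spots left out, were 6.62, 6.94 and 6.74 in np0, 8.04, 7.76 and 7.64 in p0, 7.15, 7.01 and 7.16 in np6, and 8.49, 8.60 and 8.38 in p6. Both fractions were higher at 6 h with no overlap between the times, but the non-polysomal rise passed the test in only 6 of 26 alternative settings. The M-value was 0.34 ± 0.17 (SE, n = 3, adjusted p = 0.142, limma), with a 95% interval of -0.05 to 0.72 and single replicates at -0.08, 0.77 and 0.32. With the authors' log2 values (0.36, adjusted p = 0.0442, limma) and after normexp background correction (0.35, adjusted p = 0.0248, limma) it passed the test, as it did, at 1.01, with the straight line fitted to the spike-ins (adjusted p = 0.00292, limma), whereas scaled to the 75th percentile it was -0.11. Of the 4 probes of neuron markers 2 had M above 0, or 50%, beside 32.1% of all probes. Both were of Rbfox3 (2.53 and 1.54, adjusted p = 7.01e-05 and 0.0133, limma), a splicing factor of neurons. The first of these was well above background on 1 of 3 p0 arrays and on all others, and the second, like Snap25 (M of 0.69, adjusted p = 0.084, limma), on none of the 12. Syp, the remaining neuron marker, went the other way (M of -1.13) and did not pass the test (adjusted p = 0.236, limma).

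The RefSeq promoter table (GRCm38.p6) holds 8 of the 10 genes, and the 120 bases before the start are shown for the pair with the highest M-values, Tubb5 and Tubb2a, and the pair with the lowest, Tubb4b and Tubb3, because these are the genes between which the M-values differed most. Capitals mark, on either strand, the box CCAAT, the GC box motif GGGCGG and the TATA motif written as TATAAA, in lines that read 5′ to 3′ along the gene.
Tubb5, chr17:35838302-35838421, minus strand: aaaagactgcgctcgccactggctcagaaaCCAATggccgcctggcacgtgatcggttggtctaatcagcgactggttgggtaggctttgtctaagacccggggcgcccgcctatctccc
Tubb2a, chr13:34078009-34078128, minus strand: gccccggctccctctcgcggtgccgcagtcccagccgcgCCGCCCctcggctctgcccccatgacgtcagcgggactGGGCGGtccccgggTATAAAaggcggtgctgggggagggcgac
Tubb4b, chr2:25224703-25224822, minus strand: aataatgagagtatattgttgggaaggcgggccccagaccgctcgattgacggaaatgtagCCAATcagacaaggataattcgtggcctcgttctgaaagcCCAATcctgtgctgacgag
Tubb3, chr8:123411433-123411552, plus strand: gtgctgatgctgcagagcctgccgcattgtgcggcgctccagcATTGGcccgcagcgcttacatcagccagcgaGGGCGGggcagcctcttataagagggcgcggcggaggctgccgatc
CCAAT was found in Tubb5, Tubb4b and Tubb3 and in 21.3% of all 32851 promoter windows of that length. GGGCGG was found in Tubb2a, Tubb3, Tuba1a, Tuba1b and Tuba4a and in 26.5% of all windows, and TATAAA in Tubb2a and in 6.34% of all windows. GGGCGG was thus in 1 gene of each pair and CCAAT in 1 gene of the first and both of the second, and the letters say nothing of whether a factor binds there.

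Within the polysomal fraction, which holds the mRNAs loaded with many ribosomes, 15 of 15 tubulin probes were higher at 6 h and none was lower, against 50.6% higher and 11.7% lower among all probes (limma, adjusted p below 0.05). Of the probes that every array measured well above background, 62.5% were higher and 18% lower. The share of all probes that were higher ran from 21.3% after quantile normalization to 83.3% after normexp, and the tubulin count from 13 to 15. The rises ranged from 0.68 for Tubb3 to 3.82 for Tubb2a B on the log2 scale, with a median of 1.49 beside 0.54 for all probes. Tubb2a B rose 14.2-fold, from 13.43, 13.73 and 13.65 to 17.50, 17.37 and 17.41 (adjusted p = 2.92e-09, limma). Tuba1c A rose 5.78-fold (adjusted p = 1.79e-08, limma) and Tubb6 4.17-fold (adjusted p = 1.18e-08, limma). Tuba1a rose by 0.80 ± 0.07 (SE, n = 3, adjusted p = 5.8e-06, limma), but after quantile normalization it was lower at 6 h, at -0.48. Tubb3 rose 1.60-fold (adjusted p = 0.000866, limma), but it no longer passed the test under the 75th percentile scaling, quantile normalization and the offset of the brighter spike-ins.

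Within the non-polysomal fraction the tubulin probes moved both ways. There, 5 probes were higher at 6 h and 4 lower (limma, adjusted p below 0.05), shares of 33.3% and 26.7%. Among all probes 20.5% were higher and 19.7% lower. Of the probes that, like these, every array measured well above background, 36.1% were higher and 32% lower, both above the tubulin shares. The median was -0.01, and that of all probes was 0.04. Tubb2a B rose by 1.77 ± 0.11 (SE, n = 3), Tuba1c A by 1.56 ± 0.10 and Tubb6 by 0.84 ± 0.08, with adjusted p-values of 5.83e-07, 7.89e-07 and 8.95e-06 from limma. Tubb4b (0.32) and Tubb3 (0.34) also passed the test, the latter with an adjusted p of 0.0478 (limma) that was 0.0724 with the replicate as a block. Without replicate 1 or without replicate 3 neither of these passed, which left 3 probes higher at 6 h. Tubb3 passed in only 6 of 26 alternative settings. The probes that fell were both of Tubb5, Tuba1a by 0.45 ± 0.07 (SE, n = 3, adjusted p = 0.00057, limma) and Tubb2a C by 0.39 ± 0.08 (SE, n = 3, adjusted p = 0.00247, limma). These 4 probes fell in the non-polysomal fraction, rose in the polysomal one and had M above 0, each past the test, as did 4.64% of all probes.

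Probes of the same gene did not give the same value here. Tubb2a B was measured at 12.00, 12.08 and 11.93 at 0 h and at 13.94, 13.77 and 13.61 at 6 h in the non-polysomal fraction. Tubb2a C went the other way, from 14.28, 14.36 and 14.19 to 13.95, 13.87 and 13.86, and Tubb2a A, at 9.01, 9.29 and 9.16 and then 8.97, 8.87 and 8.93, did not pass the test (adjusted p = 0.0654, limma). Tuba1c A rose from 13.78, 13.79 and 13.50 to 15.26, 15.22 and 15.26, whereas Tuba1c B lay at 11.02, 11.05 and 10.91 and then at 11.01, 10.96 and 10.96. In the polysomal fraction all of these probes rose, Tubb2a A by 2.50 and C by 1.97, Tuba1c A by 2.53 and B by 1.70. Probe sequences were not used here, and which tubulin transcripts each probe can bind was not tested.

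**Figure D3:**
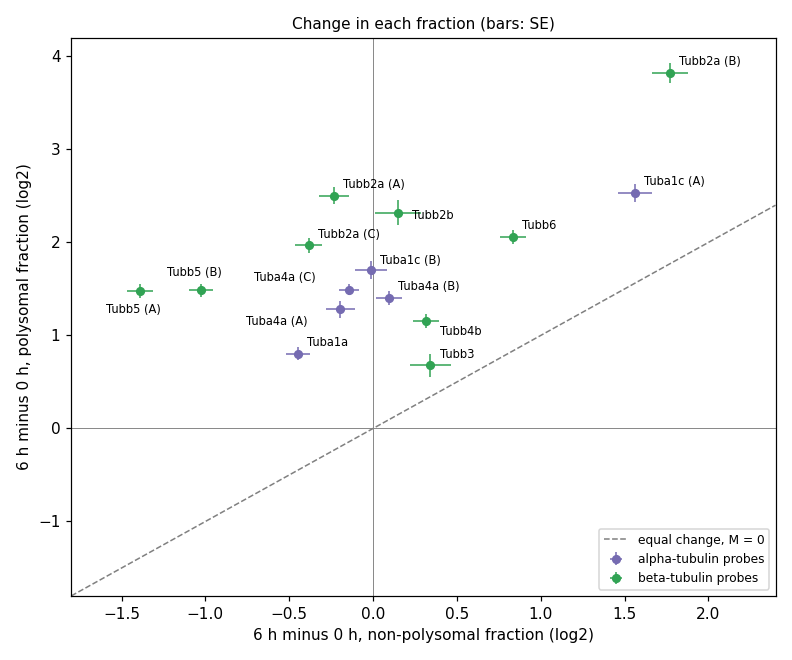
Change from 0 h to 6 h in the non-polysomal (horizontal) and the polysomal fraction (vertical axis), both log2, with SE bars, for the 6 alpha- and 9 beta-tubulin probes. All 15 points lie above the horizontal zero line (Tuba1a below it after quantile normalization) and above the dashed line of equal change, and they spread to both sides of the vertical zero line, from -1.39 for Tubb5 A to 1.77 for Tubb2a B.

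At 0 h the signal in the polysomal fraction was higher than in the non-polysomal one for all 15 tubulin probes and lower for none, against 37.1% higher and 14.9% lower among all probes (limma, adjusted p below 0.05). In the subset that every array measured well above background, 64.1% were higher and 21.1% lower. The tubulin differences ranged from 0.34 for Tubb5 A to 2.84 for Tubb4b, with a median of 1.60 beside 0.15 for all probes and 0.88 for this subset. The count at 0 h depended on the scaling: scaled to the 75th percentile, 9 probes were higher and 2, both of Tubb5, were lower in the polysomal fraction, and Tubb2a A (-0.015) and Tubb2b (-0.03) were on the other side of 0. Under that scaling 23.9% of all probes were higher and 51.4% lower at 0 h, with a median of -0.74. At 6 h all 15 probes were again higher in the polysomal fraction and none lower. Scaled to the 75th percentile 14 of 15 were higher, beside 23.5% of all probes higher and 47.9% lower. By the spike-in scaling 60.0% of all probes were higher and 9.96% lower at 6 h, and of the same subset 75.7% and 13.6%. The tubulin difference at 6 h was 2.85 to 3.67 for 14 of the probes and 1.38 for Tubb3. Its median was 3.20 beside 0.68 for all probes and 1.33 for the same subset.

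Over all 15 probes the difference between the fractions spanned 2.49 log2 units at 0 h and 2.29 at 6 h, and the 9 beta-tubulin probes alone had the same spans. At 6 h Tubb3 stood apart from the others, and over the 14 probes without it, left out after the values were seen, the span was 2.49 at 0 h and 0.83 at 6 h. The 6 alpha-tubulin probes spanned 0.50 at 0 h and 0.65 at 6 h. A shift common to all probes of an array does not change these spans. Quantile normalization and the straight line through the spike-ins do not shift all probes alike, and the span without Tubb3 was not computed under them. After quantile normalization the 15 differences ran from -0.006 to 2.02 at 0 h and from 0.18 to 2.75 at 6 h.

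**Figure D4:**
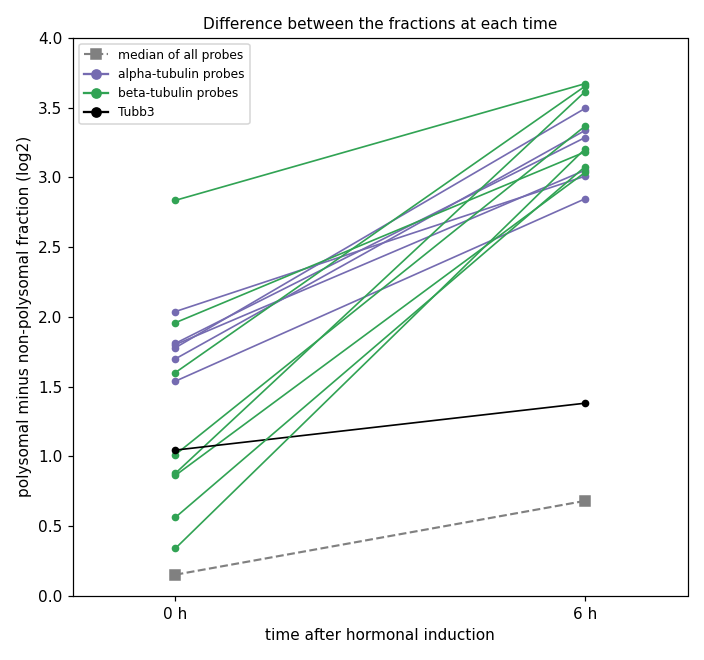
Polysomal minus non-polysomal log2 signal (vertical axis) at 0 h and 6 h for each tubulin probe, with the median of all probes as a dashed line. The lines of 14 probes start between 0.34 and 2.84 and end between 2.85 and 3.67, the line of Tubb3 ends at 1.38, and with the 75th percentile scaling the lowest starts lie below 0.

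Pearson's r of a probe with the mean profile of all 15, of which each probe is a part, was 0.891 (Tubb5 A) to 0.997 (Tuba4a B). Between single tubulin probes r was as low as 0.689 (Tubb5 A with Tubb2a B). These are descriptions over 12 arrays that fall into 4 groups, so the large differences between the groups set much of r. Among 16568 other named probes that every array measured well above background, those whose profile was most like the tubulin mean were probes of Alyref2 (r = 0.9996), Adssl1 (0.9988), Cops7b (0.9987), Lypla2 (0.9986) and Eif3g (0.9983). The first encodes an mRNA export factor, Adssl1 a purine synthesis enzyme, Cops7b a subunit of the COP9 signalosome, Lypla2 an acyl-protein thioesterase and Eif3g a subunit of a translation initiation factor.

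The other tubulin genes were represented by 7 of 10 genes and 8 probes. M was above 0 for 5 probes, or 62.5%, beside 32.1% of all probes and 53.7% of those well above background on every array. It was below 0 for none, and the median was 0.64. The count above 0 ran from 3 with the brighter spike-ins to 8 with the straight line. Tubb4a, a brain-enriched beta-tubulin, had an M-value of 2.80 ± 0.10 (SE, n = 3, adjusted p = 8.02e-07, limma) and, like Tubb5, fell in the non-polysomal fraction (by 1.22) and rose in the polysomal one (1.58). Which tubulin transcripts this probe and those of Tuba3a can bind was not tested. Tuba3a had a pair of probes with M-values of 1.31 and 0.43, of which the second did not pass the test (adjusted p = 0.149, limma). Tuba8 rose by 1.38 in the polysomal fraction and was not well above background in np6. The delta- and epsilon-tubulins of centrioles went down in the non-polysomal fraction, Tubd1 by 0.77 and Tube1 by 1.32, and Tube1 fell by 1.06 in the polysomal fraction as well.

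The genes that fold tubulin, the prefoldin subunits and the tubulin cofactors, had 12 of 15 probes with M above 0 and none below, with a median of 0.83. The share above 0 was 80.0%, beside 32.1% of all probes and 53.7% of those well above background on every array. Scaled to the 75th percentile 10 were above and 1 below 0, with the brighter spike-ins 5 and 1, and with the straight line 14 and 1. Tbcb, a cofactor that handles alpha-tubulin, had an M-value of 1.55, Pfdn5 had 1.39 and 1.17, and Arl2, a small GTPase that works with the cofactors, had 1.36 and 1.28. Within the polysomal fraction 11 probes rose, or 73.3%, beside 50.6% of all probes and 62.5% of those well above background on every array. There, 1 probe of the list fell, and Pfdn5 (1.96 and 1.78), Pfdn4 (1.64) and Tbca (1.49) changed most. With the 75th percentile 7 rose and 4 fell there, and after quantile normalization 7 and 6. Within the non-polysomal fraction 7 rose and 5 fell, among them Tbcc (1.94), both probes of Arl2 (-1.28 and -1.30) and Tbcb (-1.12). These were shares of 46.7% and 33.3%, beside 20.5% and 19.7% of all probes. Of those well above background on every array 36.1% rose and 32% fell.

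Of the autoregulation genes, all 12 were on the array with 25 probes, and the median M was 0.06. M was above 0 for 7 probes, or 28.0%, and below 0 for 3, beside 32.1% above 0 among all probes and 53.7% among those well above background on every array. The counts above and below 0 were 5 and 11 with the 75th percentile, 2 and 6 with the brighter spike-ins, 11 and 3 with the authors' values, 14 and 3 after normexp, and 17 and 0 with the straight line, where the median was 0.74. Ttc5, the factor that reads the nascent tubulin chain, was measured by its brighter probe at 7.64, 7.79 and 7.63 in np0, 9.17, 9.43 and 9.39 in p0, 7.10, 7.30 and 7.29 in np6, and 9.92, 9.72 and 9.89 in p6. The times did not overlap in either fraction and lay apart in opposite directions, with an M-value of 0.97 ± 0.14 (SE, n = 3, adjusted p = 0.000556, limma), and the dimmer probe of Ttc5 had 1.25 ± 0.27 (SE, n = 3, adjusted p = 0.00508, limma). The polysomal rise of the brighter probe (0.51) passed the test under 4 of 7 scalings and background corrections and was 0.008 at the least, and the change of the dimmer probe in the non-polysomal fraction was 0.03 (adjusted p = 0.93, limma). Cnot9 (1.39) and 1 of 3 probes of Cnot3 (1.31), both subunits of CCR4-NOT, had the highest M-values of the list.

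Scaper went down in both fractions. Its brighter probe was measured at 7.97, 8.00 and 7.96 in np0, 8.30, 8.39 and 8.23 in p0, 5.78, 5.69 and 6.63 in np6, and 5.68, 5.54 and 5.68 in p6. All 6 h arrays lay below all 0 h arrays in both fractions. The signal of Scaper fell by 2.67 ± 0.21 in the polysomal (SE, n = 3, adjusted p = 1.69e-06, limma) and by 1.95 ± 0.21 in the non-polysomal fraction (SE, n = 3, adjusted p = 2.57e-05, limma), 6.38-fold and 3.85-fold, and under the other scalings and background corrections it fell by 1.61 and 1.30 at the least. The M-value was -0.73 and did not pass the test (adjusted p = 0.0762, limma). The dimmer probe of Scaper also fell in both fractions (adjusted p = 2.12e-05 and 0.000395, limma) but was well above background on 0 of 3 p6 arrays. Cnot7, a deadenylase subunit, rose alike in both fractions by the probe that was the brighter except in p0 (2.17 and 2.17, M of -0.004). Its other probe rose by 1.08 in the polysomal and 0.76 in the non-polysomal fraction (M of 0.32, adjusted p = 0.088, limma). Cnot6 rose by 1.44 in the polysomal and 1.38 in the non-polysomal fraction.

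Of the enzymes that modify tubulin, 16 of 17 genes were on the array with 27 probes. M was above 0 for 6, or 22.2%, and below 0 for 3, with a median of 0.10. Above 0 were 32.1% of all probes and 53.7% of those well above background on every array. The counts above and below 0 were 5 and 9 with the 75th percentile, 12 and 3 with the authors' values, 13 and 2 after normexp, and 22 and 2 with the straight line, where the median was 0.92. Vash1, which removes the C-terminal tyrosine of alpha-tubulin, was measured at 7.72, 7.60 and 7.53 in np0, 7.56, 7.50 and 7.43 in p0, 7.52, 7.29 and 7.42 in np6, and 9.74, 9.52 and 9.79 in p6. Only the p6 arrays stood apart, and the M-value of Vash1 was 2.39 ± 0.14 (SE, n = 3, adjusted p = 2.91e-06, limma). Ttl, the ligase that puts the tyrosine back, fell by 1.06 in the polysomal and 0.98 in the non-polysomal fraction. Ttll5, a glutamylase, had M-values below 0 by 3 of 4 probes (-1.38, -1.30 and -0.67), and Sirt2, a tubulin deacetylase, above 0 by all 3 (1.30, 1.09 and 0.89). Ttll4 rose by 1.00 in the polysomal and by 1.05 in the non-polysomal fraction, and Vash2 fell by 1.27 in the latter by its brighter probe.

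Proteins that bind microtubules or free dimers were represented by 27 of 30 genes and 47 probes, of which 20, or 42.6%, had M above 0 and 2 below, with a median of 0.33. Above 0 were 32.1% of all probes and 53.7% of those well above background on every array, so the share of this list lay between them. The counts above and below 0 were 8 and 10 with the 75th percentile, 29 and 6 with the authors' values, 33 and 4 after normexp, and 34 and 0 with the straight line, where the median was 0.99. Stmn1, which sequesters free dimers, was measured by its brighter probe at 12.54, 12.66 and 12.50 in np0, 13.70, 13.84 and 13.84 in p0, 11.02, 10.96 and 10.98 in np6, and 13.81, 13.87 and 13.90 in p6. The polysomal arrays of the times overlapped and the non-polysomal ones did not. The M-values of Stmn1 were 1.64 and 1.56, with a fall by 1.58 and 1.44 in the non-polysomal fraction, and in the polysomal fraction neither probe passed the test (0.07 and 0.13). The end-binding protein gene Mapre3 (1.33) and the severing subunit Katna1 (1.23) had the next highest M-values of those that passed the test. Camsap3, a minus-end binding protein, was 10.5-fold lower at 6 h in the polysomal and 13.2-fold lower in the non-polysomal fraction, and under the other scalings and background corrections it fell by 1.65 and 1.69 at the least on the log2 scale. Ckap5, which speeds the growth of plus ends, fell by 2.93 in the polysomal fraction by its brighter probe, and Stmn3 rose there by 1.74 from a level well above background on 1 of 3 p0 arrays. Kif2c, a depolymerizing kinesin, fell by 1.83 and Clasp2 rose by 1.70 in the non-polysomal fraction.

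The gamma-tubulin ring complex, the template from which microtubules start, had all 8 genes on the array with 11 probes. M was above 0 for 4, or 36.4%, and below 0 for none, with a median of 0.26. That share lay between the 32.1% of all probes and the 53.7% of those well above background on every array. With the 75th percentile 3 were above and 2 below 0, with the brighter spike-ins 1 and 1, and with the straight line 9 and 0. Mzt2 had the highest M-value of those that passed the test (1.35), followed by Tubgcp3 (0.88) and Tubgcp4 (0.85). Tubgcp2 fell by 0.74 in the polysomal and by 1.16 in the non-polysomal fraction. Tubgcp6 (0.91) and Mzt1 (0.79 and 0.72) rose in the non-polysomal fraction, and Mzt1 (1.03) and Tubgcp5 (1.00) in the polysomal one.

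**Figure D5:**
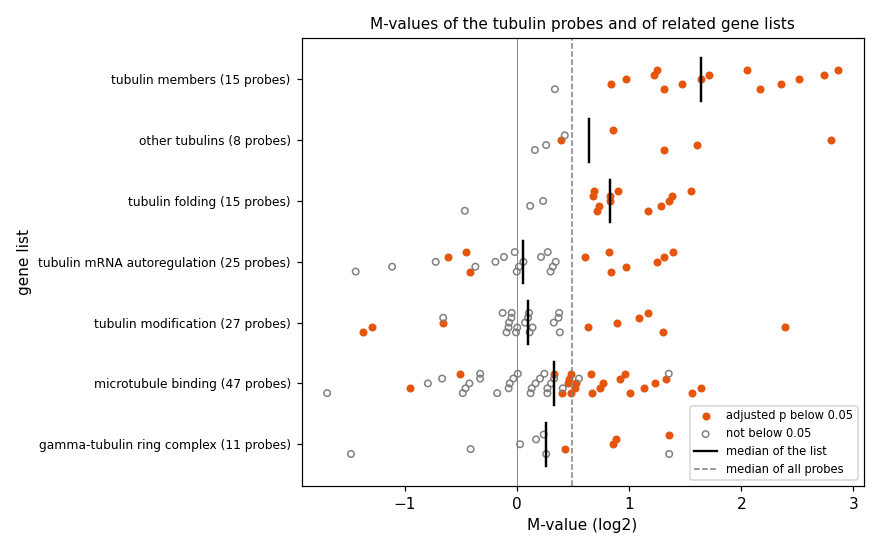
M-value (horizontal axis, log2) of every probe of the tubulin genes and of 6 related gene lists (vertical axis), filled where the adjusted p was below 0.05. Black bars are list medians and the dashed line is the median of all probes, 0.49. The median of the tubulin probes is 1.64 and those of the lists lie between 0.06 for autoregulation and 0.83 for folding, and under the 75th percentile scaling all points move to the left.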

How the data were processed

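RNA of 4 groups with 3 biological replicates each was measured on 12 one-color Agilent arrays, and each of 3 slides held 1 replicate of each group. Per the file headers, Feature Extraction 10.7.1.1 gave a background-subtracted and detrended Cy3 intensity for each of 45018 spots (1639 of them controls). The authors also deposited log2 values, which equal the mean log2 median pixel of a probe's spots up to 1 shift for each array (largest residual 5.2e-14). Here the background-subtracted intensity was taken to the log2 scale, 94 to 221 spots per array marked as outliers were left out, spots of a probe were averaged, and arrays were scaled by the mean of the spike-in transcripts, since the study normalized to spike-ins. By array, the 75th percentile of intensity ran from 241 to 269 in np0, 449 to 514 in p0, 253 to 281 in np6 and 426 to 567 in p6, and 55.65% to 60.84% of the probes of an array were well above background. The number of arrays limits the precision. Gene symbols came from RefSeq accessions (GRCm38.p6) and were found for 26690 probes (64.8%).

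All 41155 probes with a value in every group entered 1 fit of the 4 groups with limma 3.58.1 in R 4.3.3 (lmFit, contrasts, eBayes), with the data.table package (1.17.8) for tables and p-values adjusted by Benjamini and Hochberg over all probes. Replicate numbers were not used as pairs in the main fit. Deviations from the group means correlated between same-numbered arrays with r of -0.097 to 0.424 (median 0.068, n = 18 pairs). Between different-numbered arrays r was -0.379 to 0.208 (median -0.038, n = 36 pairs). Since the number is also the slide, M is given within replicates and the number was tried as a block.

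Tested on simulated data of 41155 probes, 30.0% of 200 probes given an M of 1 and 71.5% of 200 given an M of 2 were called. The 200 were drawn from all probes, dim ones included, and no others changed. In the data 32.1% of all probes were above and 3.98% below 0, which makes the adjusted p less strict. These shares are thus not the power of the tubulin tests.

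Named were all tubulin probes, for each list up to 3 genes with the largest change past the test in each of M, the polysomal and the non-polysomal fraction, always Ttc5, Scaper, Stmn1 and Vash1, and the 5 genes with the most similar profile. The members and lists were chosen with earlier results of these data known. The alternatives were other scalings, the authors' log2 values, normexp with an offset of 50, no dim probes, outlier spots kept, the replicate block, an intensity trend, gene means, and leaving out each array or replicate number.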

Additional observations from a re-analysis of the deposited data

Results flagged for a closer look

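In 4 tubulin probes the time effects of the fractions went in opposite directions, each past the test, and M, which tests the difference itself, passed as well (limma, adjusted p below 0.05). A fall in the non-polysomal and a rise in the polysomal fraction with M above 0, each past the test, was found in 4.64% of all probes. They were Tuba1a (M of 1.25), Tubb2a C (2.35), Tubb5 A (2.86) and Tubb5 B (2.51), which fell in the non-polysomal and rose in the polysomal fraction. Under quantile normalization Tuba1a was lower at 6 h in both fractions (-0.48 in the polysomal fraction). The other probes of Tubb2a did not both fall in the non-polysomal fraction, with -0.24 for A (adjusted p = 0.0654, limma) and 1.77 for B.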

How the results depend on the processing

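Under the alternatives M kept its direction and its side of the threshold for 12 of 15 tubulin probes, the exceptions being Tubb3, Tubb4b and Tuba1c A. With the 75th percentile, 7 probes were lower at 6 h in the non-polysomal fraction, and in the polysomal fraction at 0 h 9 were higher and 2 lower, with Tubb2a A at -0.015, Tubb2b at -0.03, Tubb5 A at -0.55 and Tubb5 B at -0.33. Of all probes 21.7% were lower in the former comparison, and 23.9% were higher and 51.4% lower in the latter. With quantile normalization, 1 probe was lower at 6 h in the polysomal fraction (Tuba1a, -0.48), 7 in the non-polysomal one, and Tubb2a A was at -0.006 between the fractions at 0 h. With a line fitted through the spike-ins 3 were higher and 7 lower at 6 h in the non-polysomal fraction, and with the intensity trend 7 were lower. With probes averaged by gene, counts are of 9 genes: 8 had M above 0, 9 were higher at 6 h in the polysomal fraction, 2 lower in the non-polysomal one, and 9 higher in the polysomal fraction at each time. Leaving out arrays or replicate numbers gave 3 to 5 probes higher in the non-polysomal fraction at 6 h, with 3 each without replicate 1 and without replicate 3, and Tubb3 was the probe lost most often. With the replicate block 14 probes had M above 0, as before, and 4 rather than 5 were higher at 6 h in the non-polysomal fraction (Tubb3 lost). The median of all M-values moved from 0.49 to 0.04 (75th percentile), -0.001 (quantile), 0.03 (brighter spike-ins) and 1.42 (straight line), and the tubulin median lay 1.15, 0.88, 1.15 and 0.47 above it. The cause of these changes was not tested.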
